A study of Mus musculus with 29 samples.

Results

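The Gimap genes (GTPases of the immunity-associated protein family) form a cluster of related GTPase genes on mouse chromosome 6, and the 8 genes described here are Gimap1, Gimap3, Gimap4, Gimap5, Gimap6, Gimap7, Gimap8 and Gimap9. They were chosen by symbol and were 8 of the 30025 genes measured, with 0 further genes of that name in the table. RNA was sequenced from 3 populations of bone marrow cells sorted as lineage-negative, Sca-1 and c-kit positive, CD41 and CD48 negative cells with high, low or absent surface CD150, called CD150hi HSC, CD150lo HSC and CD150neg MPP (hematopoietic stem cells and multipotent progenitors; the sample labels also call the CD150neg cells HSC). The study asked how loss of a chromosomal segment deleted in human myeloid malignancies alters these cells. It used 10 C57BL/6J mice, each giving a library of each population, except that 5A3+/del CD150neg MPP had 4 libraries.

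The 5 wild-type mice (WT) were 12.42 weeks (1 mouse), 12.85 weeks (1 mouse) and 13.28 weeks (3 mice) old. The 5 5A3+/del mice were 12.42 weeks (2 mice), 12.85, 13.28 and 13.85 weeks (1 mouse each) old. In 5A3+/del mice, 1 copy of chromosome 5 had lost 2 Mb of band 5A3, the counterpart of a stretch of human 7q22. This heterozygous deletion was present in the germ line. It was made with Cre and loxP sites in embryonic stem cells and was backcrossed for 10 or more generations. Every tissue of these mice carried the deletion, so that effects within blood cells and effects of other tissues cannot be told apart in freshly sorted cells. The Gimap cluster lies on another chromosome and outside the deletion.

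GIMAP proteins are small GTP-binding proteins with an AIG1 domain, and several of them sit on membranes of the endoplasmic reticulum, lysosomes or lipid droplets. They are best known in lymphocytes: loss of Gimap5 in mice and rats depletes T cells, impairs the survival of lymphocytes and also disturbs the maintenance of hematopoietic stem cells. Gimap3 and Gimap5 have been reported to bind members of the BCL2 family, which set the threshold for apoptosis, and Gimap6 to bind the autophagy protein GABARAPL2.

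Levels are given as FPKM (fragments divided by the length of a gene's exons and by the depth of the library), which allow genes to be compared per length. The 15409 genes that reached 1 FPKM in 4 or more of the libraries, among them all 8 Gimap genes, were transformed as log2(FPKM + 1) and quantile normalized over the 29 libraries, and normalized FPKM are these values transformed back. Libraries held 21229490 to 38797569 fragments, with a median of 26967107. The Gimap gene with the fewest fragments in a library was Gimap7, with 15 in WT CD150hi HSC of replicate 2, and Gimap6 never had fewer than 4424. Fragments were amplified without molecular identifiers, so that counts of this kind speak for counting error only. Differences between groups were tested with limma (two-sided, Benjamini-Hochberg adjustment over 15409 genes, threshold 0.05) and are log2 differences on the log2(FPKM + 1) scale, which understates differences of genes with low values.

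The labelled populations were checked against markers. In normalized FPKM, Slamf1 (which encodes CD150) stood at 14.4 ± 1.04 (SD, n = 5) in WT CD150hi HSC, 1.59 ± 0.718 (n = 5) in WT CD150lo HSC and 0.142 ± 0.0314 (n = 5) in WT CD150neg MPP. Its level in 5A3+/del mice was 16.1 ± 4.54 (n = 5), 0.923 ± 0.728 (n = 5) and 0.109 ± 0.0558 (n = 4). The sort used CD150, c-kit, Sca-1 and CD48, so that Slamf1, Kit, Ly6a and Cd48 check the sort and are no finding. Flt3, a cytokine receptor gained as cells leave the stem cell state and not used in the sort, had 2.87 ± 0.720 (SD, n = 5), 29.7 ± 6.21 (n = 5) and 50.7 ± 8.22 (n = 5) normalized FPKM in the 3 WT populations in the same order.

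Gimap6 and Gimap1 were the most abundant Gimap genes. Gimap6 had a mean of 65.6 normalized FPKM over the 29 libraries, more than 96.6% of the genes tested, and Gimap1 had 50.3, more than 95.4%. Gimap5 (35.0) and Gimap8 (26.3) followed. Gimap9 (11.3), Gimap4 (9.92), Gimap3 (5.76) and Gimap7 (5.50) were lower, with Gimap7 above 48.0% of the genes tested. Summed over the 8 genes, the level was 214 ± 13.9 (SD, n = 5) in WT CD150hi HSC, 193 ± 6.23 (n = 5) in WT CD150lo HSC and 194 ± 9.32 (n = 5) in WT CD150neg MPP. The sum in 5A3+/del mice was 242 ± 17.1 (n = 5), 200 ± 23.5 (n = 5) and 217 ± 24.6 (n = 4) in the same populations. No test was made of this sum.

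The order Gimap6, Gimap1, Gimap5, Gimap8 held for the means of all 6 groups, with and without normalization, and the remaining 4 genes stood below Gimap8 in each group. Neighbours in this order often overlapped. In WT CD150hi HSC, Gimap6 had 58.9 ± 5.87 (SD, n = 5) normalized FPKM and Gimap1 had 55.2 ± 5.22 (n = 5), and the values of the 5 libraries overlapped. In WT CD150neg MPP the same genes had 69.3 ± 4.33 (n = 5) and 47.8 ± 3.75 (n = 5), and each Gimap6 value was above each Gimap1 value. Gimap5 and Gimap8 overlapped in WT CD150lo HSC, WT CD150neg MPP and 5A3+/del CD150lo HSC and did not in the other 3 groups. Gimap8 was apart from the gene below it in all 6 groups. Among the lowest 4 genes every neighbouring pair overlapped in every group. Gimap9 led them in 5 groups, and Gimap4 did so in 5A3+/del CD150hi HSC with 16.2 ± 1.37 (n = 5) against 11.7 ± 1.85 (n = 5) for Gimap9.

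**Figure D1:**
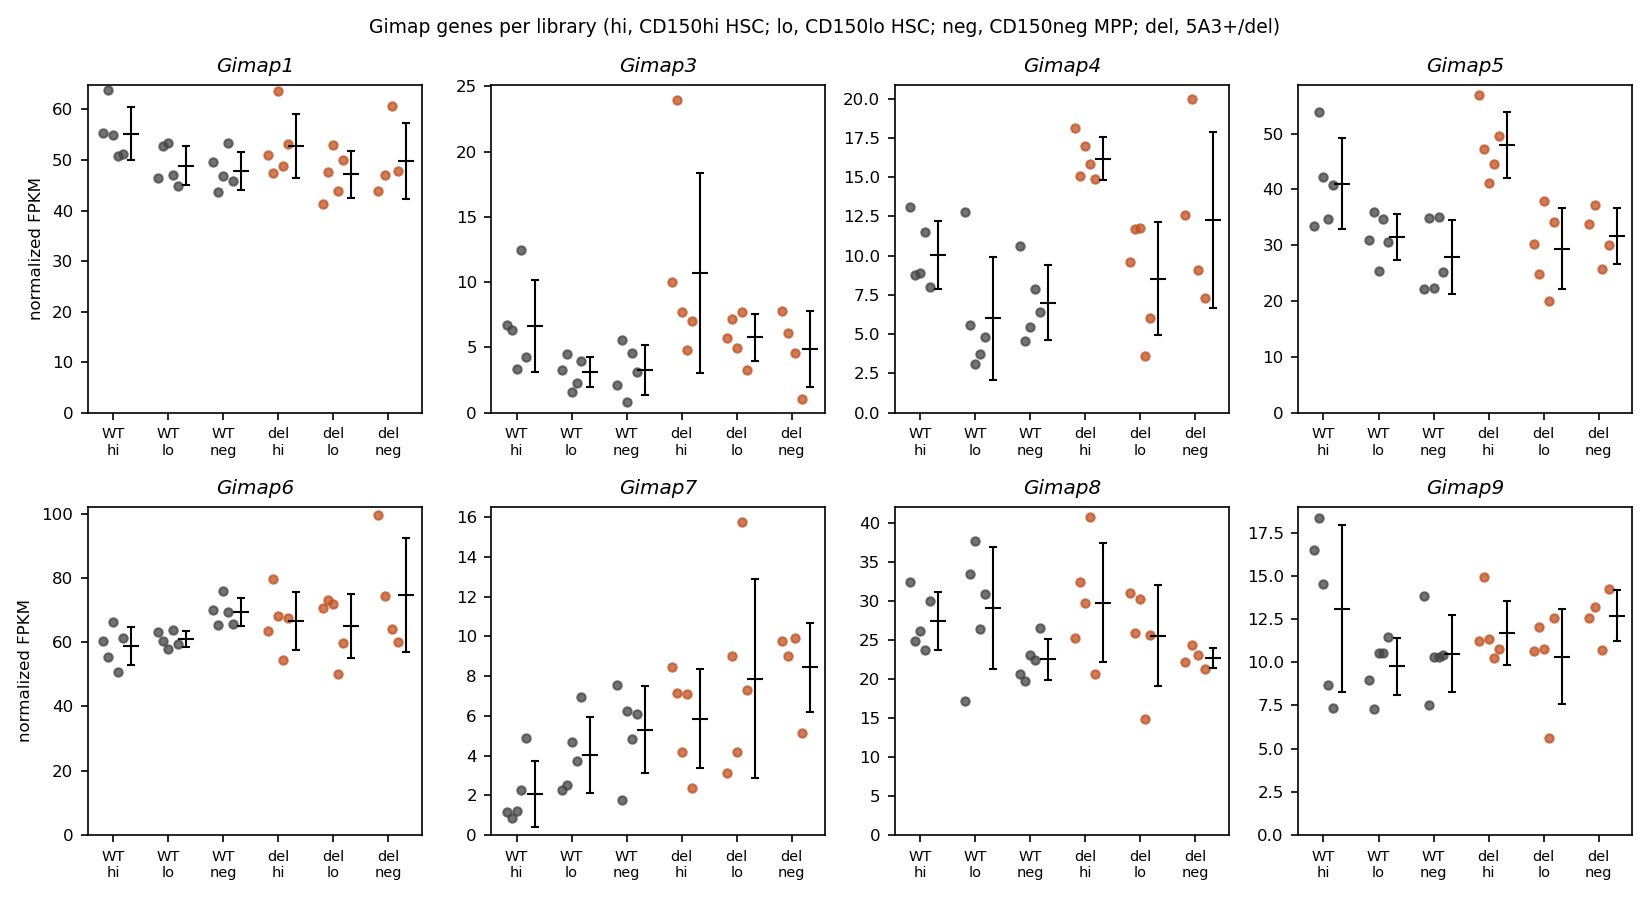
Normalized FPKM of each Gimap gene (y axis, a scale of its own for each gene, starting at 0) in each library (points) of the 6 groups (x axis), with the group mean and SD beside them; gray points are WT and orange points 5A3+/del libraries. Gimap5 reached 56.9 in CD150hi HSC of a 5A3+/del mouse, where each of the 5 values lay above each value of 5A3+/del CD150lo HSC.

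Gimap5 was the Gimap gene called between populations by limma, in 2 comparisons, and these calls depended on the setting and on single mice. With the mouse as a block, Gimap4 and Gimap7 were each called as well in 1 of them. It is the member whose loss is best studied, and its product is needed for the survival of naive T cells. In WT CD150hi HSC its normalized FPKM was 33.4, 53.9, 42.2, 34.7 and 40.7 in replicates 1 to 5, in WT CD150lo HSC 30.9, 35.9, 25.3, 34.7 and 30.6, and in WT CD150neg MPP 22.1, 34.9, 22.4, 35.0 and 25.1. Its values in 5A3+/del CD150hi HSC were 56.9, 47.2, 41.2, 44.6 and 49.6, in 5A3+/del CD150lo HSC 30.2, 24.8, 37.9, 19.9 and 34.2, and in 5A3+/del CD150neg MPP 33.7, 37.3, 25.7 and 30.0 in replicates 1 to 4. The 5A3+/del CD150hi HSC values lay above every value of the other 5A3+/del populations. In WT mice the populations overlapped, because CD150hi HSC of replicates 1 and 4 were below the highest libraries of CD150lo HSC and CD150neg MPP. In these bulk samples, more cells that express a gene and more RNA of that gene per cell cannot be told apart.

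Between CD150hi HSC and CD150lo HSC of 5A3+/del mice, limma called 1 of the 8 Gimap genes, against 3.18% of all genes tested, and 2 (Gimap4 and Gimap5) had an unadjusted p under 0.05, against 13.3%. Gimap5 was higher in CD150hi HSC by a log2 difference of 0.71 (SE 0.17, 95% interval 0.36 to 1.06, adjusted p = 0.0145 with limma), in 5 of 5 mice. With the mouse as a block, Gimap4 was called as well (log2 difference 0.95, adjusted p = 0.0195 with limma, against 0.0884 without the block). In limma without 5A3+/del replicate 1, 2 or 4, Gimap5 missed the threshold (adjusted p = 0.0797, 0.0837 and 0.0913), and it also did in a fit of these groups alone (adjusted p = 0.0811); over the other alternatives its log2 difference ran from 0.70 to 0.73, and without a mouse from 0.61 to 0.86. Leaving out WT replicate 1, which is in neither of these groups, added Gimap4 (adjusted p = 0.0344 with limma). The filter, the normalization and the estimate of the spread were all redone without that mouse. Gimap4 and Gimap5 were the 2 of 8 genes whose groups did not overlap, against 4.33% of all genes tested. The median of the 8 log2 differences was 0.21, against -0.0049 over all genes tested.

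In WT mice limma called 1 of 8 Gimap genes between CD150hi HSC and CD150neg MPP, against 10.0% of all genes tested. An unadjusted p under 0.05 was reached by 3 (Gimap3, Gimap5 and Gimap7), against 21.8%, and the groups of 0 of 8 did not overlap, against 8.63%. Gimap5 was higher in CD150hi HSC by a log2 difference of 0.55 (SE 0.17, 95% interval 0.20 to 0.90, adjusted p = 0.0391 with limma), in 4 of 5 mice. Without WT replicates 1, 2, 3 or 5, limma gave adjusted p = 0.0953, 0.0777, 0.151 and 0.141 for Gimap5. Its adjusted p with limma was 0.117 in a fit of these groups alone, 0.0522 with median scaling, 0.0585 without the filter and 0.0857 without normalization. Its log2 difference stayed between 0.46 and 0.69 without a mouse. With the mouse as a block, Gimap7 (log2 difference -1.08) was called as well in limma, with an adjusted p just under 0.05, against 0.0702 without the block, and without WT replicate 5 it had 0.0496. The median of the 8 differences was 0.26, against -0.0070 over all genes tested.

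For the same populations of 5A3+/del mice, limma called 0 of 8 Gimap genes, against 6.16% of all genes, and 2 genes (Gimap3 and Gimap5) had an unadjusted p under 0.05, against 16.9% of all genes. Gimap5 had a log2 difference of 0.59 (SE 0.18, adjusted p = 0.0520 with limma), was higher in CD150hi HSC of 4 of 4 mice, and was the 1 gene of the 8 without overlap between the groups, against 7.61% of all genes. Without WT replicate 2 limma gave it an adjusted p of 0.0385, with the FPKM minimum at 5 it was 0.0441, and with a trend in the variance prior 0.0368; it reached 0.126 under the other alternatives and 0.179 without a mouse. In WT mice limma called 0 of 8 genes between CD150hi HSC and CD150lo HSC, against 3.53% of all genes. There 4 genes (Gimap3, Gimap4, Gimap5 and Gimap7) had an unadjusted p under 0.05, against 14.1%, and 0 had groups that did not overlap, against 4.04%. Gimap5 there had a log2 difference of 0.36 (SE 0.17, adjusted p = 0.334 with limma) and was higher in CD150hi HSC of 5 of 5 mice. The medians of the 8 differences were 0.21 in the 5A3+/del and 0.25 in the WT comparison, against -0.0039 and -0.0027 over all genes.

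No Gimap gene passed the test between CD150lo HSC and CD150neg MPP. In WT mice 0 of 8 genes were called, against 0.188% of all genes, and 0 had an unadjusted p under 0.05, against 8.75%. Among the 5A3+/del libraries limma called 0 of 8, against 0.0389% of all genes, 0 had an unadjusted p under 0.05, against 4.95%, and 0 had groups without overlap, against 1.95%. Gimap6 was the 1 gene of 8 whose WT groups did not overlap, against 2.26% of all genes. Its values were 63.1, 60.3, 58.0, 63.9 and 59.5 in WT CD150lo HSC and 70.0, 65.4, 76.1, 69.5 and 65.6 in WT CD150neg MPP, each of the latter above each of the former. The log2 difference of Gimap6 was -0.18 (SE 0.13, adjusted p = 0.771 with limma). The medians of the 8 differences were -0.03 in WT and -0.15 in 5A3+/del mice, against -0.0072 and 0.0049 over all genes.

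Gimap4 was higher and Gimap7 lower in CD150hi HSC than in CD150lo HSC of every WT mouse, and neither difference passed the test. Gimap4 is expressed as thymocytes mature and has been linked to the pace of T cell death. Its normalized FPKM was 13.1, 8.76, 8.88, 11.5 and 8.03 in WT CD150hi HSC, 12.8, 5.59, 3.09, 3.75 and 4.83 in WT CD150lo HSC, and 10.6, 4.54, 5.46, 7.88 and 6.43 in WT CD150neg MPP. The values in 5A3+/del mice were 18.1, 15.1, 17.0, 15.8 and 14.9 in CD150hi HSC, 9.60, 11.7, 11.7, 3.59 and 6.03 in CD150lo HSC, and 12.6, 20.003, 9.07 and 7.33 in CD150neg MPP. Replicate 1 was the highest library of each WT population. In 10 of 10 mice Gimap4 was higher in CD150hi HSC than in CD150lo HSC, and its log2 differences were 0.78 in WT (SE 0.30, adjusted p = 0.190 with limma) and 0.95 in 5A3+/del mice (SE 0.30), where the adjusted p is given above. The fit behind the 0.190 does not pair the populations of a mouse. Over the alternatives, which include the mouse as a block, the adjusted p of limma in WT ran from 0.0591 to 0.328. Without a mouse it ran from 0.0706 to 0.457.

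Gimap7 had its lowest level in WT CD150hi HSC. Its product was reported to activate the GTPase of other GIMAP proteins. Normalized FPKM of Gimap7 were 1.15, 0.842, 1.21, 2.27 and 4.86 in WT CD150hi HSC, from 31, 15, 50, 87 and 200 fragments. They were 2.28, 2.52, 4.66, 3.74 and 6.97 in WT CD150lo HSC and 7.58, 1.77, 6.24, 4.82 and 6.07 in WT CD150neg MPP. The 5A3+/del values were 8.45, 7.15, 4.17, 7.12 and 2.37 in CD150hi HSC, 3.13, 9.03, 4.17, 15.8 and 7.28 in CD150lo HSC, and 9.75, 9.02, 9.90 and 5.14 in CD150neg MPP. WT CD150hi HSC of replicates 1 to 3 were the lowest libraries of the 29 for Gimap7, while replicate 5 overlapped the 5A3+/del values. In 5 of 5 WT mice Gimap7 was lower in CD150hi HSC than in each of the other populations, with a log2 difference of -0.78 from CD150lo HSC (SE 0.38, adjusted p = 0.354 with limma). Over the alternatives, which include the mouse as a block, this adjusted p of limma ran from 0.263 to 0.528.

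No Gimap gene passed the test for genotype. In CD150hi HSC limma called 0 of 8 genes, against 0.156% of all genes tested, and 2 of 8 (Gimap4 and Gimap7) had an unadjusted p under 0.05, against 13.1% of all genes. Gimap7 had 5.85 ± 2.50 (SD, n = 5) normalized FPKM in 5A3+/del and 2.07 ± 1.65 (n = 5) in WT mice. This was a log2 difference of 1.20 (SE 0.38, 95% interval 0.43 to 1.98, adjusted p = 0.155 with limma), and the groups overlapped. Gimap4 had 16.2 ± 1.37 (n = 5) in 5A3+/del and 10.0 ± 2.14 (n = 5) in WT mice, and was the 1 gene of 8 whose groups did not overlap, against 2.58% of all genes. Its log2 difference was 0.65 (SE 0.30, 95% interval 0.04 to 1.26, adjusted p = 0.346 with limma). The other 6 genes had log2 differences from -0.08 (Gimap9) to 0.54 (Gimap3). Leaving out single mice moved the Gimap9 value to between -0.25 and 0.05. Under every alternative tried the adjusted p of limma stayed at 0.109 or above for Gimap7 in this comparison.

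In CD150lo HSC limma called 0 of 8 genes by genotype, against 0.0324% of all genes, and 0 had an unadjusted p under 0.05, against 6.87% of all genes. Log2 differences ran from -0.18 (Gimap8) to 0.72 (Gimap3 and Gimap7), with adjusted p-values of limma of 0.781 or more, and 0 of 8 had groups that did not overlap, against 1.63% of all genes. In CD150neg MPP limma called 0 of 8, against 0.0454% of all genes, and 1 (Gimap4, log2 difference 0.69, SE 0.31) had an unadjusted p under 0.05, against 4.27%, while 0 had groups that did not overlap, against 1.51%. Single mice moved these values: Gimap4 in CD150neg MPP had 0.44 without 5A3+/del replicate 2 and 0.88 without replicate 4. Without 5A3+/del replicate 4, Gimap7 in CD150lo HSC had 0.44 and Gimap8 -0.0034, and without WT replicates 1, 2 or 3 Gimap8 had -0.35, -0.12 and -0.08. Within each population, the highest upper limit of the 95% intervals was 1.54 in CD150lo HSC (Gimap3) and 1.47 in CD150neg MPP (Gimap7). In CD150hi HSC it was 1.98 (Gimap7). For the abundant Gimap1 the interval in CD150hi HSC ran from -0.29 to 0.15, and for Gimap6 from -0.09 to 0.44. The medians of the 8 genotype differences were 0.20, 0.06 and 0.23 in CD150hi HSC, CD150lo HSC and CD150neg MPP, against 0.0044, 0.011 and -0.0013 over all genes tested.

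Averaging CD150hi HSC and CD150lo HSC of each mouse made the mouse the unit. limma then called 0 of 8 genes by genotype, against 0.0519% of all genes, and 3 (Gimap3, Gimap4 and Gimap7) had an unadjusted p under 0.05, against 11.8% of all genes. Gimap7 had a log2 difference of 0.96 (SE 0.30, adjusted p = 0.243 with limma), Gimap3 of 0.63 (SE 0.25) and Gimap4 of 0.57 (SE 0.22). The other 5 genes lay between -0.06 (Gimap1) and 0.13 (Gimap6). Leaving out single mice moved Gimap1 to between -0.12 and -0.02 and Gimap6 to between 0.07 and 0.20. Gimap9 then ran from -0.09 to 0.09. These averages use the same libraries as the comparisons within each HSC population.

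The genotype effect was not shown to differ between populations. For CD150hi HSC against CD150lo HSC, limma called 0 of 8 genes, against 0% of all genes, and 0 had an unadjusted p under 0.05, against 3.98%. For CD150lo HSC against CD150neg MPP it called 0 of 8, against 0%, and 0 had an unadjusted p under 0.05, against 5.00%. For CD150hi HSC against CD150neg MPP it called 0 of 8, against 0%, and 0 had an unadjusted p under 0.05, against 7.96%. For Gimap5 the difference of CD150hi HSC from CD150lo HSC was larger in 5A3+/del than in WT mice by 0.35 on the log2 scale (SE 0.24, 95% interval -0.14 to 0.85), so that the call in 5A3+/del mice and the absence of a call in WT mice do not show a difference between genotypes.

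**Figure D2:**
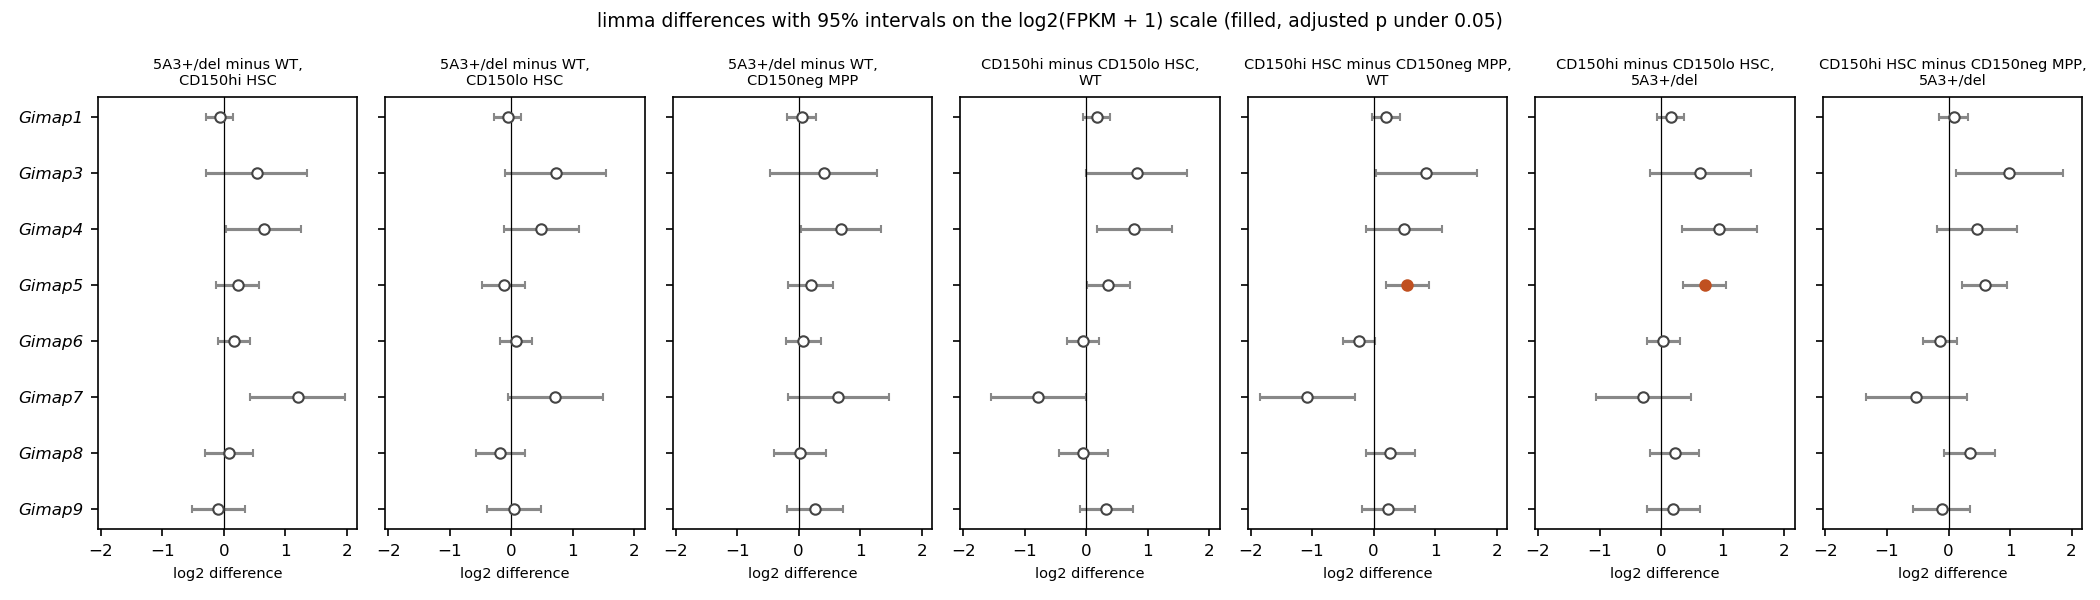
Log2 differences of the 8 Gimap genes (x axis, log2(FPKM + 1) scale; y axis, genes) with 95% intervals from limma, for 3 comparisons of genotypes and 4 of populations; filled points have an adjusted p under 0.05 with limma. The 2 filled points are Gimap5 in WT (CD150hi HSC minus CD150neg MPP, 0.55) and in 5A3+/del mice (CD150hi HSC minus CD150lo HSC, 0.71).

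Limma called none of the other 5 members in any comparison. Gimap1, needed for the survival of mature B and T cells, ranged from 41.3 to 63.8 normalized FPKM over the 29 libraries, a ratio of 1.55 between the highest and the lowest. Gimap6, whose loss in mice reduces T cells, ranged from 50.2 to 99.7, with the highest value in 5A3+/del CD150neg MPP of replicate 1. Gimap8, the longest member with repeated GTPase domains, ranged from 14.8 to 40.8, and Gimap9 from 5.60 to 18.4. Gimap3, which has been linked to the segregation of mitochondrial DNA, ranged from 0.843 to 24.0, from 23 to 550 fragments, the widest ratio of highest to lowest of the 8 (28.5). It was higher in CD150hi HSC than in CD150lo HSC in 5 of 5 WT and 4 of 5 5A3+/del mice, and than in CD150neg MPP in 5 of 5 and 4 of 4. Its adjusted p with limma was 0.205 or more in each of these. Its mean was 6.62 ± 3.54 (SD, n = 5), 3.12 ± 1.17 (n = 5) and 3.27 ± 1.90 (n = 5) in WT CD150hi HSC, CD150lo HSC and CD150neg MPP, and 10.7 ± 7.64 (n = 5), 5.77 ± 1.78 (n = 5) and 4.89 ± 2.88 (n = 4) in 5A3+/del mice. The 5A3+/del CD150hi HSC mean of Gimap3 rested on replicate 2, whose 24.0 lay above the 10.0 of the next library, and without this mouse the genotype difference there moved from 0.54 to 0.22.

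Members were only loosely correlated with each other over the 29 libraries, which share mice, populations and normalization. Of 28 pairs 21 had a Pearson r above 0, with a median of 0.161. Gimap3 and Gimap4 had the highest value (r = 0.538, Spearman rho = 0.568, n = 29), followed by Gimap4 and Gimap5 (r = 0.522, rho = 0.500, n = 29). Gimap5 and Gimap7 had the lowest (r = -0.408, rho = -0.353, n = 29). After the group means were removed, the median r was 0.0767, r was 0.255 for Gimap3 and Gimap4, and it was -0.466 for Gimap5 and Gimap7. These values are a description of libraries that are not independent.

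The genes outside the family most like the mean of the 8 members were named by Pearson r over 29 libraries. Uba7, which encodes the activating enzyme of the ubiquitin-like modifier ISG15, came first (r = 0.804, rho = 0.797, n = 29), followed by Kcnip3 (r = 0.789), H1f0, which encodes a linker histone (r = 0.766), and Ifitm3, an interferon-induced restriction factor against viruses (r = 0.736). Evc, Lass4, Gm8145, Tmem176a, Prom2 and Hs1bp3 completed the 10 genes, down to r = 0.711. Of these, Evc, Gm8145 and Prom2 were near the floor, with means of 0.874, 0.933 and 0.611 normalized FPKM over the libraries. Only 4 of the 10 were also among the first 10 by Spearman rho, and 3 were among the first 10 after the group means were removed. Tmem176a lies beside the Gimap cluster on chromosome 6. For single members the most similar genes were Il6st for Gimap1 (r = 0.697), Uba7 for Gimap3 (0.788), Evc for Gimap4 (0.808) and Khk, which encodes ketohexokinase, for Gimap5 (0.798). They were Oas2 for Gimap6 (0.738), Ptbp1 for Gimap7 (0.727), Gm13577 for Gimap8 (0.707) and Zcchc24 for Gimap9 (0.663).

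These 16 genes were chosen for their likeness to the members over the same libraries, so that counts among them are a description and no independent test. Of them, limma called 4 higher and 2 lower in WT CD150hi HSC than in WT CD150neg MPP, against 10.0% of all genes. Khk was higher by 0.89 (SE 0.20, adjusted p = 0.00333 with limma) and Evc by 0.80 (SE 0.21, adjusted p = 0.0130), whereas Oas2, which encodes an interferon-induced oligoadenylate synthetase, was lower (log2 difference -1.26, SE 0.31, adjusted p = 0.00842). The same comparison gave 4 higher and 0 lower in 5A3+/del mice (Gm8145, Kcnip3, Khk and Lass4), against 6.16% of all genes. Against CD150lo HSC, 2 of the 16 were higher and 0 lower in WT (Kcnip3 and Uba7), and 3 higher and 0 lower with the deletion (Evc, Kcnip3 and Khk), against 3.53% and 3.18% of all genes. The calls of Evc and Gm8145 rest on the low levels given above. By genotype limma called 0 of 16 in each population, and 8, 5 and 5 had an unadjusted p under 0.05 in CD150hi HSC, CD150lo HSC and CD150neg MPP, against 13.1%, 6.87% and 4.27% of all genes. Ifitm3 came nearest, with a log2 difference of 0.55 in CD150lo HSC (SE 0.11, adjusted p = 0.0504 with limma) and 0.47 in CD150hi HSC (SE 0.11, adjusted p = 0.0519).

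The Gimap cluster spans chr6:48597233-48716518 in mm9, 119 kb, with 6 genes on the plus strand and Gimap6 and Gimap3 on the minus strand. From the lower coordinate the genes are Gimap8 (chr6:48597233-48610874), Gimap9 (chr6:48626128-48629113), Gimap4 (chr6:48634548-48642061), Gimap6 (chr6:48651581-48658224), Gimap1 (chr6:48668606-48702599), Gimap7 (chr6:48668620-48674635), Gimap5 (chr6:48696196-48704209) and Gimap3 (chr6:48715088-48716518). The annotated span of Gimap1 includes a long transcript that begins at the start of Gimap7 and ends inside Gimap5. Exons of Gimap1 share 81 bp with Gimap7, which is 6.38% of the exon length of Gimap7, and 109 bp with Gimap5, 4.63% of that of Gimap5. Fragments in these stretches could be counted for either gene or for neither. A further 103 bp of Gimap1 exons overlap Gm3345 on the opposite strand, and the use of strand in counting is not given in the sources used here, so that the levels of Gimap1 and Gm3345 are uncertain to that extent. Gimap3 and Gimap5 are close paralogs, and how fragments that fit both were counted is not given either.

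**Figure D3:**
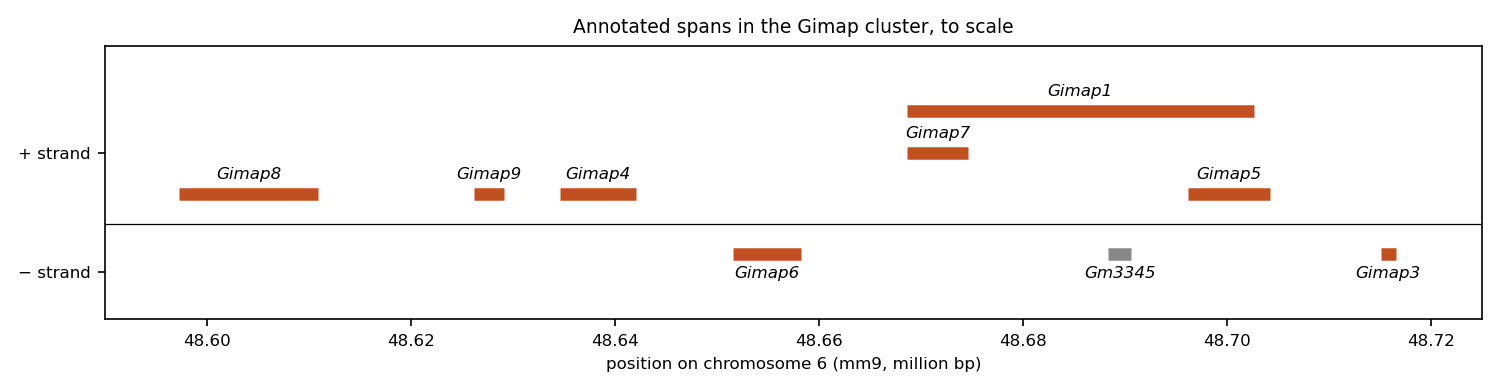
Annotated spans of the 8 Gimap genes (orange) and Gm3345 (gray) along mouse chromosome 6 in mm9 (x axis, position in Mb, to scale; genes above the line are on the plus strand, those below on the minus strand, and heights only keep labels apart). Gimap7 lies within the span of Gimap1, and Gimap5 overlaps its end.

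Neighbours were counted within the cluster and 500 kb on both sides. Of 31 annotated genes 30 were in the table and 18 passed the filter. By genotype limma called 0 of 18 in CD150hi HSC, CD150lo HSC, CD150neg MPP and the mean of both HSC populations, and 4, 4, 1 and 4 had an unadjusted p under 0.05, against 13.1%, 6.87%, 4.27% and 11.8% of all genes. Between CD150hi HSC and CD150lo HSC limma called 1 of 18 in WT and 1 of 18 in 5A3+/del mice, against 3.53% and 3.18% of all genes. Between CD150hi HSC and CD150neg MPP it called 3 of 18 in WT and 1 of 18 in 5A3+/del mice, against 10.0% and 6.16%. Gm5111, a gene below the lower end of the cluster, was the neighbour called most often. It was lower in CD150hi HSC than in CD150lo HSC (log2 difference -1.44 in WT and -1.13 in 5A3+/del mice, adjusted p = 0.00194 and 0.0185 with limma) and than in CD150neg MPP (-1.76 and -1.43, adjusted p = 6.77e-05 and 0.00202). Krba1 (0.51, adjusted p = 0.0175 with limma) and the pseudogene Gm10243 (0.44, adjusted p = 0.0156) were higher in WT CD150hi HSC than in WT CD150neg MPP. The antisense neighbour Gm3345, at 42.6 normalized FPKM over the libraries, had a genotype difference of 0.70 in CD150hi HSC (adjusted p = 0.1203 with limma). Gm3345 was chosen after its values were seen.

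Promoters are shown for Gimap4, Gimap5 and Gimap7, the members called between populations under some setting. No member was called by genotype. The members shown and the motifs were chosen after the values were seen. RefSeq windows of 300 bases around annotated starts in GRCm38.p6 were found for all 8 members, 9 windows in all, since Gimap8 has 2. Windows were searched on both strands for the RUNX motif TGTGGT, found in 16.8% of 32851 mouse promoters, the GATA motif AGATAA (11.2%), the ETS motif CCGGAAGT (3.89%), the E-box CAGGTG (20.2%) and the TATA motif TATAAA (13.6%). RUNX letters were in the windows of Gimap1, Gimap4 and Gimap7, E-box letters in that of Gimap9 and TATA letters in that of Gimap6, each once and without overlap of motifs. GATA and ETS letters were in 0 of 9 windows. A match is a stretch of letters and not a binding site. The 250 bases before the start are printed 5′ to 3′ for the plus strand, with the reverse complement of the RUNX motif in capitals, of Gimap4 (chr6:48684328-48684577), Gimap5 (chr6:48745947-48746196) and Gimap7 (chr6:48718371-48718620).
Gimap4: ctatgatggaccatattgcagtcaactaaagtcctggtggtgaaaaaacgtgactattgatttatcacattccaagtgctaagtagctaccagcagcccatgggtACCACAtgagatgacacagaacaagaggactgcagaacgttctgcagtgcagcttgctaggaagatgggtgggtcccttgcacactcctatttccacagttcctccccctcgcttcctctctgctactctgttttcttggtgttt
Gimap5: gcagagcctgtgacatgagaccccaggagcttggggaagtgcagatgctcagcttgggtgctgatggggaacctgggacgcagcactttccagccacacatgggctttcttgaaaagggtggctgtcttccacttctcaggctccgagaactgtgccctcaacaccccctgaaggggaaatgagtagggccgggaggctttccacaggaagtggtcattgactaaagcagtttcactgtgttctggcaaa
Gimap7: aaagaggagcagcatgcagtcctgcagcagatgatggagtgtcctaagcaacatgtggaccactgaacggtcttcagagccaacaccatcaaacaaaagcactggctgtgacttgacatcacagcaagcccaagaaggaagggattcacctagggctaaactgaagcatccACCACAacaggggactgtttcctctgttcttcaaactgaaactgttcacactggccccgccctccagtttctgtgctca

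Reported partners of GIMAP proteins and BCL2 family genes were measured as a list of 12, all of which passed the filter. In CD150hi HSC against CD150lo HSC, limma called 0 higher and 1 lower in WT and 2 higher and 1 lower in mice with the deletion, against 3.53% and 3.18% of all genes called. The median log2 differences were -0.02 and 0.19, against -0.0027 and -0.0049 over all genes. Against CD150neg MPP, 1 was higher and 1 lower in WT (10.0% of all genes called; median 0.04 against -0.0070), and 3 were higher and 1 lower with the deletion (6.16% called; median -0.0045 against -0.0039). Bcl2l1, which encodes the survival factor BCL-XL, was higher in 5A3+/del CD150hi HSC than in CD150lo HSC by 0.80 (SE 0.16, adjusted p = 0.00353 with limma), as was Gabarapl1, a GABARAPL2 relative that works in autophagy, by 0.44 (SE 0.12, adjusted p = 0.0433). Bcl2l11, which encodes the pro-apoptotic BIM, was lower there (log2 difference -0.81, SE 0.19, adjusted p = 0.0115 with limma) and in WT (-0.74, adjusted p = 0.0225). Bcl2 was higher in 5A3+/del CD150hi HSC than in CD150neg MPP by 0.71 (adjusted p = 0.0388 with limma). Hspa8, a chaperone, was the most abundant of the list at 148 FPKM, followed by Mcl1 at 107 FPKM. By genotype limma called 0 of 12 in each population, and 3, 1 and 0 had an unadjusted p under 0.05 in CD150hi HSC, CD150lo HSC and CD150neg MPP, against 13.1%, 6.87% and 4.27% of all genes. The medians were -0.05, -0.12 and -0.13, against 0.0044, 0.011 and -0.0013 over all genes. Of all genes limma called 0.156%, 0.0324% and 0.0454% by genotype.

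Other immunity-related GTPases, of the GBP and IRG families, act against intracellular microbes and are induced by interferon. All 12 of this list passed the filter, with Gbp7 at 34.3 FPKM and Irgm2 at 31.6 FPKM the most abundant. Against CD150neg MPP, limma called 4 of 12 higher and 0 lower in WT CD150hi HSC (10.0% of all genes were called), with a median log2 difference of 0.41 against -0.0070 over all genes, and 6 higher and 0 lower in 5A3+/del CD150hi HSC (6.16% of all genes), with a median of 0.59 against -0.0039. Gbp4 had log2 differences of 1.41 in WT (SE 0.29, adjusted p = 0.00135 with limma) and 2.06 in 5A3+/del mice (SE 0.30, adjusted p = 3.79e-05). Against CD150lo HSC, 2 of 12 (Gbp4 and Gbp7) were higher and 0 lower in 5A3+/del CD150hi HSC, against 3.18% of all genes, with a median of 0.41 against -0.0049. WT mice had 0 of 12 called by limma there, against 3.53% of all genes, with 5 at an unadjusted p under 0.05, against 14.1%, and a median of 0.25 against -0.0027. By genotype limma called 0 of 12 in each population, and 3, 0 and 1 had an unadjusted p under 0.05 in CD150hi HSC, CD150lo HSC and CD150neg MPP, against 13.1%, 6.87% and 4.27% of all genes. The medians were 0.19, 0.08 and 0.07, against 0.0044, 0.011 and -0.0013.

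Of the genes of lymphoid priming, each one called by limma was lower in CD150hi HSC. Of 12 listed genes 9 passed the filter, with Ikzf1 at 75.7 FPKM the most abundant. limma called 4 lower and 0 higher in CD150hi HSC than in CD150lo HSC of WT mice and 6 lower and 0 higher with the deletion, against 3.53% and 3.18% of all genes called. The medians were -1.60 and -1.70, against -0.0027 and -0.0049 over all genes. Against CD150neg MPP, 8 were lower and 0 higher in WT and 7 lower and 0 higher with the deletion, against 10.0% and 6.16% of all genes, and the medians were -2.14 and -2.22, against -0.0070 and -0.0039. Satb1, a chromatin organizer of lymphoid progenitors, differed by -1.68 in WT (SE 0.15, adjusted p = 3.26e-08 with limma) and by -1.70 in 5A3+/del mice (SE 0.15, adjusted p = 2.08e-08) between CD150hi HSC and CD150lo HSC. Dntt, the terminal transferase of antigen receptor rearrangement, differed by -2.76 and -2.04 (adjusted p = 1.77e-05 and 0.000857 with limma). By genotype limma called 0 of 9, and 0, 0 and 1 had an unadjusted p under 0.05 in CD150hi HSC, CD150lo HSC and CD150neg MPP, against 13.1%, 6.87% and 4.27% of all genes. The medians were -0.09, -0.04 and -0.04, against 0.0044, 0.011 and -0.0013.

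All 3 multipotent progenitor markers (Cd34, the most abundant at 110 FPKM, Flt3 and Cd48, itself used in the sort) were lower in CD150hi HSC than in CD150lo HSC by limma in each genotype, against 3.53% of all genes in WT and 3.18% with the deletion. The medians were -1.79 and -1.49, against -0.0027 and -0.0049 over all genes. The list summed to 37.0 ± 12.3 (SD, n = 5), 150 ± 21.1 (n = 5) and 220 ± 18.3 (n = 5) FPKM in the WT populations and to 52.9 ± 8.99 (n = 5), 165 ± 8.50 (n = 5) and 233 ± 23.0 (n = 4) in the 5A3+/del populations. Their part in the difference of Gimap5 between populations was not tested.

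Markers of mature cells were also measured. Of 10 T cell markers 3 passed the filter, and the list summed to 2.82 to 5.16 FPKM in WT CD150hi HSC (mean 4.05, n = 5), 4.46 to 6.46 in CD150lo HSC (mean 5.57, n = 5) and 5.28 to 11.0 in CD150neg MPP (mean 8.37, n = 5). In the 5A3+/del libraries it summed to 3.66 to 6.16 (mean 4.35, n = 5), 3.33 to 8.92 (mean 5.86, n = 5) and 4.75 to 8.05 (mean 6.66, n = 4). Lck was the most abundant at 3.05 FPKM, whereas Cd3e (0.0610), Cd3g (0.0195), Cd8a (0.0148) and Themis (0.0062) were near 0. The sort excluded cells with surface CD3, CD8, B220, Gr-1 or Ter119. Low Cd3e, Cd3g and Cd8a therefore check the sort and are no finding. Lck was lower in WT CD150hi HSC than in WT CD150neg MPP (log2 difference -0.90, adjusted p = 0.0241 with limma), and Cd4 was lower in 5A3+/del CD150hi HSC (-1.11, adjusted p = 0.0330). Their part in the Gimap values was not tested.

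Of 9 B cell markers 2 passed the filter, with Cd79b at 11.7 FPKM the most abundant and Pax5 (0.0313) and Ms4a1 (0.0031) near 0. The list summed to 12.9 ± 4.59 (SD, n = 5), 14.0 ± 4.32 (n = 5) and 12.6 ± 3.13 (n = 5) FPKM in the WT populations and 15.5 ± 9.58 (n = 5), 10.8 ± 2.52 (n = 5) and 13.4 ± 2.73 (n = 4) in the 5A3+/del populations. Between populations limma called 0 of the 2 B cell genes, against 0.0389% to 10.0% of all genes, and 0 had an unadjusted p under 0.05, against 4.95% to 21.8%. Of 7 NK cell markers 2 passed, Nkg7 (22.5 FPKM), which was lower in CD150hi HSC, and Klrb1c (1.34), which was higher there, while Ncr1 (0.0077) and Tbx21 (0.0052) were near 0. Their sums were 10.6 ± 3.81 (n = 5), 19.5 ± 4.52 (n = 5) and 30.1 ± 11.5 (n = 5) in WT and 12.2 ± 5.28 (n = 5), 31.5 ± 8.47 (n = 5) and 43.4 ± 10.8 (n = 4) in 5A3+/del mice. Of 7 endothelial markers 3 passed, and Cldn5 was the most abundant at 0.658 FPKM, with Sox17 (0.0122) near 0. They summed to 2.17 ± 0.538 (n = 5), 2.10 ± 1.10 (n = 5) and 2.30 ± 0.797 (n = 5) in WT and 3.90 ± 2.19 (n = 5), 3.60 ± 1.58 (n = 5) and 3.96 ± 3.14 (n = 4) in 5A3+/del mice, and Kdr was higher in 5A3+/del CD150hi HSC than in CD150lo HSC (log2 difference 0.74, adjusted p = 0.0355 with limma). The part of these markers in the Gimap values was not tested.

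Granulocyte and monocyte markers (5 of 5 past the filter) were highest in WT replicate 1 in both HSC populations. Their sum was 684, 332, 225, 230 and 322 FPKM in WT CD150hi HSC, 1035, 235, 173, 293 and 279 in WT CD150lo HSC, and 231, 226, 187, 223 and 198 in WT CD150neg MPP. The 5A3+/del sums were 194, 246, 223, 200 and 196 in CD150hi HSC, 198, 247, 398, 333 and 301 in CD150lo HSC, and 178, 217, 345 and 237 in CD150neg MPP. Lyz2 was the most abundant at 190 FPKM, followed by S100a8 at 91.3 FPKM, and Ctsg (0.691) was the lowest. WT CD150lo HSC of replicate 1, with the highest sum, also had the highest Gimap4 value of its group, and the part of these markers in it was not tested. Without WT replicate 1 the log2 difference of Gimap4 between genotypes in CD150lo HSC moved from 0.49 to 0.76 (adjusted p = 0.511 with limma). Erythroid markers (4 of 5 past the filter, Hbb-b1 the most abundant) summed to 9.21 ± 2.87 (SD, n = 5), 21.4 ± 6.80 (n = 5) and 18.8 ± 9.93 (n = 5) in WT and 11.4 ± 4.71 (n = 5), 23.8 ± 8.16 (n = 5) and 15.6 ± 6.49 (n = 4) in 5A3+/del mice. Megakaryocyte markers (3 of 4 past the filter, Pf4 the most abundant, Gp1bb near 0 at 0.0473 FPKM) summed to 37.5 ± 13.0 (n = 5), 31.6 ± 6.91 (n = 5) and 35.3 ± 12.0 (n = 5) in WT and 29.8 ± 8.32 (n = 5), 38.1 ± 8.12 (n = 5) and 27.2 ± 7.58 (n = 4) in 5A3+/del mice. Itga2b, which encodes CD41, a marker used in the sort, was higher in 5A3+/del CD150hi HSC than in CD150neg MPP (log2 difference 0.78, adjusted p = 0.0485 with limma). Between populations limma called 0 granulocyte and monocyte and 0 erythroid markers, against 0.0389% to 10.0% of all genes. In CD150hi HSC against CD150lo HSC of 5A3+/del mice, 3 of each had an unadjusted p under 0.05, against 13.3% of all genes, and 0 and 2 had in WT, against 14.1%. Median log2 differences of the 2 lists were -1.46 and -0.76 in 5A3+/del mice, against -0.0049 over all genes. In WT mice they were -0.07 and -0.59, against -0.0027. The part of these markers in the Gimap differences was not tested.

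By genotype limma called 0 genes of the marker lists named here. Of all genes 13.1%, 6.87% and 4.27% had an unadjusted p under 0.05 in CD150hi HSC, CD150lo HSC and CD150neg MPP. Counts of markers were, in the order CD150hi, CD150lo and CD150neg, 1, 0 and 0 of 3 multipotent progenitor markers, and 0 in each population for T, B and NK cell markers. They were 1, 0 and 1 of 3 endothelial, 1, 1 and 0 of 5 granulocyte and monocyte, 0, 1 and 0 of 4 erythroid, and 1, 0 and 0 of 3 megakaryocyte markers. Median log2 differences by genotype were -1.03, -0.39 and 0.03 for granulocyte and monocyte markers and 0.02, 0.66 and 0.03 for erythroid markers. Over all genes they were 0.0044, 0.011 and -0.0013.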

How the data were processed

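RNA of the 3 sorted populations from 10 mice was amplified (Ovation RNA Amplification System V2) and sequenced with paired-end reads on a HiSeq2000. The authors deposited FPKM per gene and library, on mm9. The submitters' processing notes name Bowtie 0.12.2 and HTSeq, and the strand setting is not given in the sources used here. Fragments per library were recovered from steps in low FPKM (98.2% to 98.7% of these values were whole within 0.02).

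limma 3.58.1 (R 4.3.3) was fitted to log2(FPKM + 1) with 6 group means. A code in the labels names the mouse, which pairs populations within a genotype: deviations from group means correlated with a median r of 0.0786 in the 28 library pairs of the same mouse and -0.0250 in 112 pairs of other mice. No replicate pair agreed within sampling noise. The fit was tested on simulated data, whose outcome is not given here. Python 3.11.15 made the tables.

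The members and lists were chosen with earlier results of these data known. Named are the 8 members, the 10 genes most like their mean, the most similar gene of each member, called neighbours within 500 kb, and the called and the most abundant genes of the lists: partners and BCL2 family, GBP and IRG, lymphoid priming, and markers of multipotent progenitors, T, B, NK and endothelial cells, granulocytes and monocytes, erythroid cells and megakaryocytes. Other list genes named at low levels were chosen after their values were seen. All 8 members passed the filter, so that the permutation test meant for members below it was not needed. Alternatives covered pseudocount, filter, normalization, variance prior, libraries in the fit, the mouse as a block, and each mouse left out.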

Additional observations from a re-analysis of the deposited data

Results flagged for a closer look

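In 4 of 48 combinations of Gimap gene and group, a library lay far from the others of its group (gap to the nearest library over the whole range, Dixon's test at 95%). Chance gives about 1 in 20, here 2.4.

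Gimap3 in 5A3+/del CD150hi HSC of replicate 2 had 24.0 normalized FPKM, and the next library had 10.0. Gimap9 in the same library had 14.9, and the next had 11.3. Gimap4 in WT CD150lo HSC of replicate 1 had 12.8, and the next had 5.59. Gimap9 in 5A3+/del CD150lo HSC of replicate 4 was the lowest at 5.60, and the next had 10.6. The cause was not tested for any of these. Genotype effects on Gimap genes were not shown to differ between populations by limma: 0 of 8 genes reached an unadjusted p under 0.05 in each of the 3 comparisons of effects, against 3.98%, 5.00% and 7.96% of all genes.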

How the results depend on the processing

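Groups held 4 or 5 mice, and the lowest libraries held 23 fragments of Gimap3 and 15 of Gimap7. Of 1856 values of Gimap genes under alternatives, 0 reversed with a call, 63 values called in neither fit changed sign, 12 calls were lost and 7 gained.

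Between CD150hi HSC and CD150neg MPP of WT mice, 1 Gimap gene was called. This became 0 with a fit of only these groups, with median scaling, without the filter and without normalization, and 2 with the mouse as a replicate block; without a mouse it was 0 to 1. Between CD150hi HSC and CD150lo HSC of 5A3+/del mice, 1 became 0 with a fit of only these groups and 2 with the block, and 0 to 2 without a mouse. Between CD150hi HSC and CD150neg MPP of 5A3+/del mice, 0 became 1 with an FPKM minimum of 5 and with a trend in the variance prior, and 0 to 1 without a mouse. A fit of only the groups compared has fewer degrees of freedom and estimates the spread from these groups alone. The cause of the changes was not tested for any setting. The block changed no other call of a Gimap gene. Every other count of Gimap genes was 0 in all settings.

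Counts over all genes moved more. By genotype in CD150hi HSC, 24 genes became 81 with an FPKM minimum of 5, 75 without the filter, 15 with a pseudocount of 0.1, 56 with the block, 100 with a variance trend, 0 in a fit of only these groups, and 4 to 40 without a mouse. In CD150lo HSC, 5 became 14, 16, 8, 8, 31 and 0 under the same settings and 3 to 74 without a mouse. In CD150neg MPP, 7 became 4 without the filter, 0 with only these groups and 3 to 8 without a mouse. For the mean of HSC populations, 8 became 56 with an FPKM minimum of 5, 43 without the filter, 5 without normalization, 5 with a pseudocount of 0.1, 151 with a variance trend, and 0 to 14 without a mouse.

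In fits of only the groups compared, WT CD150hi HSC against CD150lo HSC gave 291 genes in place of 544 and against CD150neg MPP 1022 in place of 1548, and 5A3+/del gave 315 in place of 490 and 449 in place of 949. Without a mouse these 4 counts were 330 to 628, 1030 to 1776, 334 to 505 and 624 to 971. CD150lo HSC against CD150neg MPP gave 29 in WT, which became 63 with an FPKM minimum of 5, 2 with only these groups, 14 with median scaling, 2 without normalization, 1 with the block, 64 with a variance trend and 0 to 69 without a mouse. In 5A3+/del mice 6 became 2 with an FPKM minimum of 5 and with the block, 1 without the filter, 0 with only these groups, median scaling, no normalization or a pseudocount of 0.1, and 0 to 4 without a mouse. Differences of effects gave 0, and 1 without the filter for CD150hi HSC or CD150neg MPP against CD150lo HSC, 2 with only these groups for CD150hi HSC against CD150neg MPP, and at most 13 without a mouse.

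Scaling moved the split of calls for genotype in CD150hi HSC from 20.8% higher (5 higher, 19 lower) to 33.3% (7 and 14) with median scaling. For genotype in CD150neg MPP it moved from 14.3% (1 higher, 6 lower) to 0% (0 and 6) without normalization. For the mean of HSC populations it moved from 25.0% (2 higher, 6 lower) to 14.3% (1 and 6) with median scaling. Without normalization it was 0% there (0 and 5). For CD150lo HSC against CD150neg MPP in WT mice, it started at 82.8% (24 higher, 5 lower). It moved to 92.9% (13 and 1) with median scaling and to 50.0% (1 and 1) without normalization. The shares above rest on few calls. For CD150hi HSC against CD150neg MPP, the share higher went from 54.5% to 48.3% in WT and from 52.4% to 46.8% in 5A3+/del mice without normalization. The median over all genes moved by less than 0.1 in each.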
